A study of Mus musculus with 4 samples.

Results

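Mitochondrially encoded transcripts in interscapular brown adipose tissue (iBAT) were taken from the deposited m6ARIP-seq peak table as every row whose gene symbol begins with mt-. These were 3 of 10478 rows, and they lay over 2 of 9243 regions. One region was listed under *mt-Nd2*. The other was listed under both *mt-Nd5* and *mt-Nd6* with a single set of counts, so that these genes share every value given here. In m6ARIP-seq, fragments of poly(A)+ RNA are captured with an antibody against N6-methyladenosine (IP) and compared with the fragments before capture (input). The BKO mice were *Mettl3* flox/flox with the *Ucp1*-iCre allele, and the control mice were *Mettl3* flox/flox without it, so that both groups carried loxP sites around exons 2 and 3 of *Mettl3*. All mice were of the C57BL/6 strain, were fed normal chow and were 8 weeks old. Each genotype gave 1 IP and 1 input library, both from RNA pooled from 5 mice. The Cre is made together with *Ucp1*, the gene of the uncoupling protein of brown adipocytes, so cells of iBAT that do not express *Ucp1* should keep *Mettl3*.

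The mitochondrial genome encodes core subunits of the respiratory chain and of ATP synthase, together with the rRNAs and tRNAs that translate them. It is transcribed by the mitochondrial RNA polymerase into long RNAs from both strands, which are cut mostly at the tRNAs, and most of the mRNAs receive short poly(A) tails. METTL3 acts mainly in the nucleus, and its known targets are transcripts of nuclear genes. Brown adipocytes are rich in mitochondria, whose respiratory chain builds the proton gradient that UCP1 dissipates as heat. ND2, ND5 and ND6 are subunits of the membrane arm of complex I, the NADH dehydrogenase that starts this chain.

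The *mt-Nd2* region lay at the 3′ end of its gene (mitochondrial chromosome, 4538 to 4948 in GRCm38). RefSeq's annotation of GRCm38.p6 places the single exon of this gene at 3914 to 4951, so the region ended 3 bases before the end of the gene and covered 39.6% of it. The authors placed both of its summits, the points of highest signal, inside the gene, 30 and 53 bases downstream of the centre of the region. The *mt-Nd5*/*mt-Nd6* region was longer (12952 to 14068, 1116 bases against 410). It held the last 614 bases of *mt-Nd5* (11742 to 13565) and 517 bases, or 99.6%, of *mt-Nd6* (13552 to 14070). The reading frames of these 2 genes overlap by 14 bases and run on opposite strands. Of the 3 summits of this region, 1 lay in *mt-Nd5* and the other 2 in *mt-Nd6*. By the authors' labels, the centre of the region was in the last exon of *mt-Nd5* and intergenic with respect to *mt-Nd6*. Whether strand was used in counting is not given in the sources used here, so that reads from either strand cannot be told apart.

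**Figure D1:**
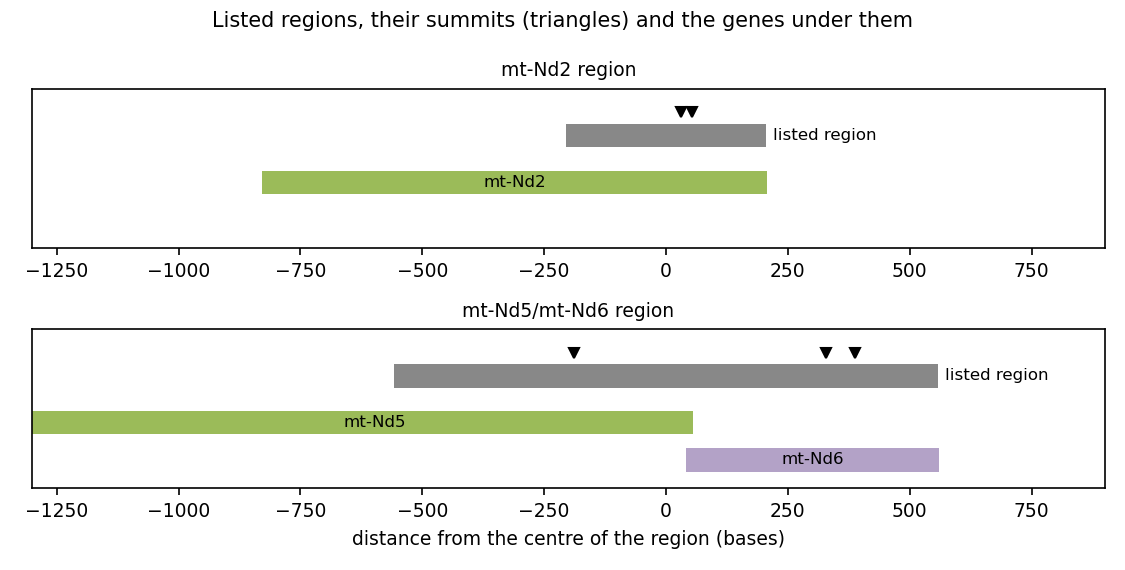
Position of the 2 listed mitochondrial regions (grey bars) and their summits (triangles) over the genes below them (coloured bars), in bases from the centre of each region. The *mt-Nd2* region ends 3 bases before its gene does, and the *mt-Nd5*/*mt-Nd6* region holds nearly all of *mt-Nd6* and the last 614 bases of *mt-Nd5*, whose start lies beyond the left edge.

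Of 37 genes that RefSeq lists on the mitochondrial chromosome, 3 of 13 protein-coding genes lay under a listed region, and none of 2 rRNA and 22 tRNA genes did. All 3 were among the 7 subunits of complex I encoded there. No region in the table had a fold enrichment below 1 in either genotype, and the RNA level and methylation of the 34 other genes cannot be read from it. The nuclear pseudogene Gm10925, for which RefSeq gives *mt-Atp6* as a synonym, had no region either. Reads that match the mitochondrial genome and a nuclear copy of it equally well cannot be assigned here.

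The library totals implied by the deposited RPM values (read counts scaled to the library total) were 13394056 to 13687380 reads in BKO and 8309098 to 8826906 reads in flox/flox. With 1 library of each kind per genotype, no difference has a replicate check and no p-value is given. The 95% intervals below cover counting error only and take 2 reads as 1 fragment, since most low counts were even (77.2% to 92.5% of counts between 1 and 20). *Mettl3* itself had no region in the table, so the deletion could not be checked in these values.

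The 2 mitochondrial regions held more reads than any other region in all 4 libraries. The *mt-Nd2* region had 51699 IP and 34835 input reads in BKO iBAT, and 77695 IP and 63671 input reads in flox/flox iBAT. The *mt-Nd5*/*mt-Nd6* region had 56885 IP and 33276 input reads in BKO, and 100903 IP and 77441 input reads in flox/flox. The next region in the BKO input was one of *Adipoq*, which encodes adiponectin, with 17280 reads. In the flox/flox input it was that of *Ctsb*, which encodes the lysosomal protease cathepsin B, with 9179 reads. Scaled to library size, both mitochondrial regions were lower in BKO than in flox/flox, before and after capture.

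Together the 2 regions took 0.509% of all input reads in BKO and 1.60% in flox/flox. In the IP libraries they took 0.793% in BKO and 2.15% in flox/flox. The share of a single region ranged from 0.248% (Wilson interval 0.246 to 0.251%, *mt-Nd5*/*mt-Nd6*, BKO input) to 1.21% (1.21 to 1.22%, the same region, flox/flox IP). Per length, the *mt-Nd2* region was the higher one in every library. Its input level was 6344 RPM per kb in BKO and 17594 RPM per kb in flox/flox, against 2226 and 7861 RPM per kb for the *mt-Nd5*/*mt-Nd6* region in BKO and in flox/flox. The highest level of a nuclear complex I subunit on this per-length scale, at its most enriched region, was 412 RPM per kb in BKO (*Ndufb11*) and 210.0 RPM per kb in flox/flox (*Ndufb10*).

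**Figure D2:**
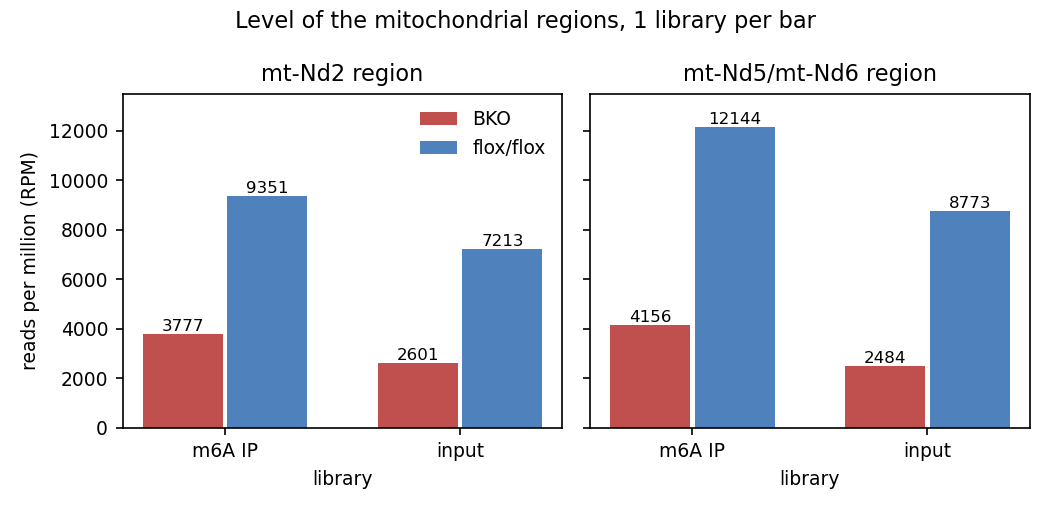
Level of the 2 mitochondrial regions in RPM, 1 bar for each IP or input library, with BKO in red and flox/flox in blue. All 4 BKO bars (2484 to 4156 RPM) are below every flox/flox bar (7213 to 12144 RPM), and in each genotype the IP bar is above the input bar.

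The input level of the *mt-Nd2* region was 2601 RPM in BKO and 7213 RPM in flox/flox. On the log2 scale, BKO over flox/flox as in all log2 ratios here, this was -1.47 (-1.50 to -1.45), or 0.361-fold. The *mt-Nd5*/*mt-Nd6* region had 2484 RPM in BKO and 8773 RPM in flox/flox, a log2 ratio of -1.82 (-1.85 to -1.79), or 0.283-fold. The input was lower in BKO in 26.7% of all regions and at least 2-fold lower in 7.37%, and the median log2 ratio of the input over all regions was 0.80. Only 371 regions had a lower ratio than *mt-Nd2* and 257 a lower one than *mt-Nd5*/*mt-Nd6*. In bulk tissue, fewer mitochondria-rich cells and less mitochondrial RNA per cell cannot be told apart. The paper reports a lower mitochondrial number in BKO iBAT. Its methods describe PCR of mitochondrial DNA, normalized to a nuclear gene. The part of that difference in the lower input was not tested. The input is poly(A)+ RNA, and whether mitochondrial mRNAs were recovered equally in both genotypes was not tested.

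The IP level was lower too, by a smaller factor. In the *mt-Nd2* region it was 3777 RPM in BKO and 9351 RPM in flox/flox (log2 ratio -1.31, -1.33 to -1.29), and in the *mt-Nd5*/*mt-Nd6* region 4156 RPM in BKO and 12144 RPM in flox/flox (-1.55, -1.57 to -1.53). The IP level was lower in BKO in 53.5% of all regions and at least 2-fold lower in 39.3%, and the mitochondrial regions stood at percentiles 34.1 and 29.9. Fewer regions combined this with a lower input. Input and IP were both lower by at least 2-fold in 5.57% of regions, and in 0.671% (62 regions) this came with a higher fold enrichment in BKO, as it did in both mitochondrial regions. Among 4523 regions with 20 or more input reads in each genotype, 5.55% had an input at least 2-fold lower in BKO, 3.71% had input and IP both lower by that much, and 10 of 4523 regions (0.221%) had this combination, the mitochondrial ones among them. Their place there is lost when levels are scaled to the reads in listed regions, since the IP log2 ratios were then -0.55 for *mt-Nd2* and -0.79 for *mt-Nd5*/*mt-Nd6*, short of a 2-fold difference.

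**Figure D3:**
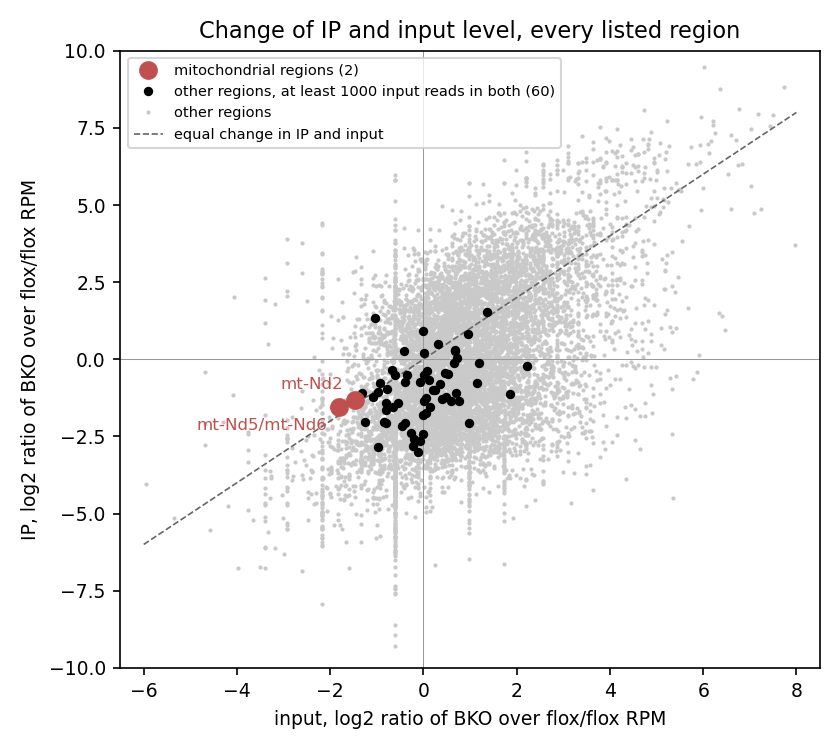
Log2 ratio of BKO over flox/flox RPM in the input (x axis) and in the IP (y axis) for every listed region, with the 2 mitochondrial regions in red, 60 other regions with 1000 or more input reads in each genotype in black and the rest in grey. The mitochondrial regions lie close to the dashed line of equal change, to the left of every black point. The floor of 1000 reads limits how low the input ratio of a black point can be.

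Enrichment by the antibody was slight in both genotypes. The fold enrichment, the IP RPM over the input RPM, of the *mt-Nd2* region was 1.45 (1.42 to 1.48) in BKO and 1.30 (1.28 to 1.32) in flox/flox. That of the *mt-Nd5*/*mt-Nd6* region was 1.67 (1.64 to 1.71) in BKO and 1.38 (1.37 to 1.40) in flox/flox. The medians of all regions were 3.05 in BKO and 5.91 in flox/flox. The authors nevertheless called both mitochondrial regions as m6A peaks in both genotypes, as they did 38.2% of all regions (70.6% were called in BKO and 67.6% in flox/flox). Requiring a fold enrichment of at least 2 as well left 2588 of the 3527 regions called in both genotypes, and neither mitochondrial region met this limit in either genotype. Among the 6523 peaks called in BKO, 249 had a lower fold enrichment than *mt-Nd2* and 507 a lower one than *mt-Nd5*/*mt-Nd6*. Among the 6247 peaks called in flox/flox, only 20 and 38 did, so that the mitochondrial peaks were near the bottom of the called peaks there.

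The fold enrichment of both regions was higher in BKO than in flox/flox. The log2 ratio of fold enrichment was 0.16 (0.13 to 0.20) for *mt-Nd2* and 0.27 (0.24 to 0.31) for *mt-Nd5*/*mt-Nd6*, or 1.12-fold and 1.21-fold. Fold enrichment was higher in BKO in 33.4% of all regions and lower in 66.6%, and in 12.0% the counting interval lay above 0. The median log2 ratio of all regions was -1.05, and 50.8% of them were lower in BKO by at least 2-fold. The mitochondrial regions stood at percentiles 68.9 and 70.4. These values depend on the scaling between libraries. Scaled to the reads within the listed regions instead of all reads, all 4 fold enrichments of the mitochondrial regions were below 1, with 0.575 and 0.662 in BKO and 0.235 and 0.251 in flox/flox. That scaling adds 1.12 to every log2 ratio of fold enrichment and -0.37 to every log2 ratio of the input, so that the median fold enrichment ratio of all regions was 0.08, with 4497 lower and 4746 higher in BKO, and those of the mitochondrial regions were 1.29 and 1.40. In it the mitochondrial regions themselves make up 4.48% of the BKO and 18.2% of the flox/flox input reads counted.

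Among the deepest regions the mitochondrial ones had the lowest input ratio. Of 60 other regions with 1000 or more input reads in each genotype, none had a log2 ratio of the input below those of *mt-Nd2* and *mt-Nd5*/*mt-Nd6*. The nearest were *Ptms*, which encodes parathymosin (-1.32, 332 RPM in BKO and 829 RPM in flox/flox), and *Crat*, the gene of carnitine acetyltransferase (-1.24, 385 RPM in BKO and 912 RPM in flox/flox). The floor of 1000 BKO input reads limits the rank of the mitochondrial regions here. A region passes it with so low a ratio only if its flox/flox input is high, so the rank was partly set by the filter. The median input log2 ratio of these 60 regions was 0.00. Their fold enrichment was lower in BKO in most cases, with 10 of 60 higher (16.7%) and a median log2 ratio of -0.96. The *mt-Nd2* region was below 9 of them in this ratio and the *mt-Nd5*/*mt-Nd6* region below 4, among them *Cebpa*, a transcription factor of adipocytes (0.69), and the endothelial cadherin gene *Cdh5* (2.36).

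**Figure D4:**
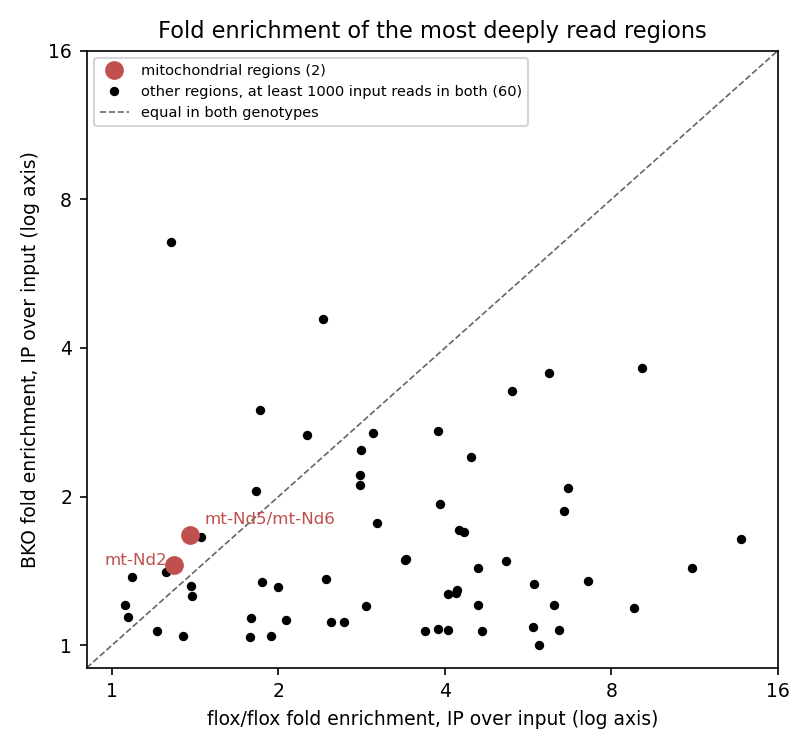
Fold enrichment in BKO (y axis) against flox/flox (x axis), both on log axes, for the 2 mitochondrial regions (red) and 60 other regions with 1000 or more input reads in each genotype (black). Both mitochondrial regions lie just above the dashed line of equal enrichment, whereas 50 of the 60 others lie below it.

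The 2 mitochondrial regions did not differ between the genotypes by the same amount. The ratio of *mt-Nd5*/*mt-Nd6* over *mt-Nd2* reads was 0.955 (0.935 to 0.976) in the BKO input and 1.22 (1.20 to 1.23) in the flox/flox input. In the IP it was 1.10 (1.08 to 1.12) in BKO and 1.30 (1.28 to 1.32) in flox/flox. The log2 ratio was therefore lower for *mt-Nd5*/*mt-Nd6* by 0.35 in the input (difference -0.35, -0.39 to -0.31) and by 0.24 in the IP (-0.24, -0.27 to -0.21), and that of the fold enrichment was higher by 0.11 (0.06 to 0.16). These differences exceed counting error. No replicate library shows how far 2 regions of this depth drift apart between pools of the same genotype.

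At their most enriched regions, most nuclear partners of these subunits did not share the lower input. Of 38 nuclear genes of complex I subunits, 29 had a region, and when each gene was read at its most enriched region, the input was higher in BKO for 24 and lower for 5, or for 22 and 7 when scaled to the reads in listed regions. In that scaling, 3399 of all 9243 regions had a lower input and 5844 a higher one. Without it, the median input log2 ratio of the 29 subunits was 1.26, against 0.81 over all 6189 genes, of which 24.8% had a lower input. With 20 or more input reads in each genotype, 3 of 23 were lower, against 30.7% of all such genes. No subunit had an input at least 2-fold lower at that region, as 5.85% of all genes did. Summed over the 29 regions, the input was 1161 RPM in BKO and 547 RPM in flox/flox. Over all 46 regions of these genes, 10 had a lower input in BKO, 2 of them by at least 2-fold. One was in the first exon of *Ndufc1*, with 5.45 RPM in BKO and 12.6 RPM in flox/flox (log2 ratio -1.21). The other, with an input ratio below those of the mitochondrial regions, lay in an internal exon of *Ndufs7*, an iron-sulfur subunit, with 16.2 RPM in BKO and 65.0 RPM in flox/flox. The most enriched region of a gene tends to have a low input in the genotype of higher fold enrichment. Its input is not the level of the whole mRNA. From quantitative PCR of mRNA and western blots of complex proteins, the paper reports that most oxidative phosphorylation genes, complex I among them, were reduced in BKO iBAT. Those measures are unlike the input of single regions.

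The fold enrichment of nuclear complex I genes was mostly lower in BKO, in 26 of 29 genes with 3 higher, and their median log2 ratio was -2.11, or -0.99 with 21 lower and 8 higher when scaled to the reads in listed regions. Over all genes, without that scaling, the median was -1.32, and 70.3% were lower in BKO against 29.7% that were higher. With it, 4497 of all 9243 regions were lower and 4746 higher, with a median of 0.08. In the IP itself, 23 of the 29 subunits were lower in BKO, as were 58.1% of all genes. Lowest among members with 20 or more input reads in each genotype was *Ndufa2*, whose region also covers another gene, with fold enrichments of 1.14 in BKO and 61.1 in flox/flox (log2 ratio -5.74, -6.17 to -5.31). Next was *Ndufa5*, like *Ndufa2* an accessory subunit, with 1.21 in BKO and 20.7 in flox/flox (-4.10, -4.55 to -3.65). Both had a higher input in BKO, with 904 BKO and 104 flox/flox reads for *Ndufa2* and 922 BKO and 99 flox/flox reads for *Ndufa5*. Their IP log2 ratios were -3.23 and -1.50, so the fold enrichment ratios hold a difference in the input too. At the other end was *Ndufa4*, first assigned to complex I and now placed in complex IV, with 2.04 in BKO and 1.48 in flox/flox (0.47, 0.10 to 0.83). It is still counted among the 29 genes here, both among the 3 with a higher fold enrichment and among the 5 with a lower input (log2 ratio -0.38).

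Of 43 nuclear genes for subunits of complexes II to V and cytochrome c, 17 had a region, and 13 of these had a lower fold enrichment in BKO (median log2 ratio -0.37), whereas 7 were lower and 10 higher, with a median of 0.76, when scaled to the reads in listed regions. The input was lower in 7 and higher in 10, with a median log2 ratio of 0.08, and lower in 11 and higher in 6, with a median of -0.29, in that scaling. Over all genes, without that scaling, fold enrichment was lower in BKO in 70.3%, with a median log2 ratio of -1.32. The input was lower in 24.8% of all genes, with a median of 0.81. With that scaling, fold enrichment was lower in 4497 of all 9243 regions and the input in 3399, with medians of 0.08 and 0.43. The ATP synthase subunits *Atp5k* (-3.51, -4.47 to -2.55) and *Atp5e* (-2.56, -2.86 to -2.27) had the lowest log2 ratios of fold enrichment. Their input log2 ratios were 1.55 and 1.21. The highest log2 ratios of fold enrichment were those of *Cox5a*, a cytochrome c oxidase subunit (0.70, 0.42 to 0.97), and *Sdhd*, a membrane anchor of complex II whose region also covers another gene (1.74, 1.13 to 2.35). Their input log2 ratios were 0.08 and -1.06. The lowest input log2 ratio in this list, -1.21, was above that of *mt-Nd2*. Of the 17 genes, 2 had an input at least 2-fold lower in BKO, as did 5.85% of all genes. Centred on the median of all regions, the input was lower in 12 and higher in 5, with a median of -0.72.

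Nuclear factors that transcribe, process, modify or degrade mitochondrial RNA, or that maintain mitochondrial DNA, had lower fold enrichments in BKO in 19 of 22 genes with a region (47 symbols searched, older names included), with a median log2 ratio of -2.64, and in 18 with a median of -1.51 when scaled to the reads in listed regions. Over all genes, without that scaling, 70.3% were lower, with a median of -1.32. With it, 4497 of all 9243 regions were lower and 4746 higher, with a median of 0.08. Of the 22 factors, 12 had 20 or more input reads in each genotype, and all 12 were lower. *Supv3l1*, the helicase of the mitochondrial RNA degradosome, had 1.63 in BKO and 94.1 in flox/flox (-5.85, -6.62 to -5.08, on 246 BKO and 32 flox/flox input reads). *Mrm3*, which methylates the large mitochondrial rRNA, had 1.68 in BKO and 39.2 in flox/flox (-4.55, -5.27 to -3.82, on 292 BKO and 36 flox/flox input reads). The log2 ratios nearest to 0 among members with 20 or more input reads were those of *Trmt10c*, a subunit of mitochondrial RNase P (-1.66, -2.54 to -0.78), and *Mtpap*, the mitochondrial poly(A) polymerase (-1.45, -1.88 to -1.03). The input of the factors was higher in BKO in 17 of 22, with a median log2 ratio of 0.81, equal to that of all genes. Scaled to the reads in listed regions, it was higher in 15 of 22, with a median of 0.44. In that scaling 5844 of all 9243 regions were higher, with a median of 0.43. One of the 22, 3110082I17Rik, has no role in mitochondrial RNA that could be backed here. Without it 19 of 21 were lower, with a median of -2.78.

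**Figure D5:**
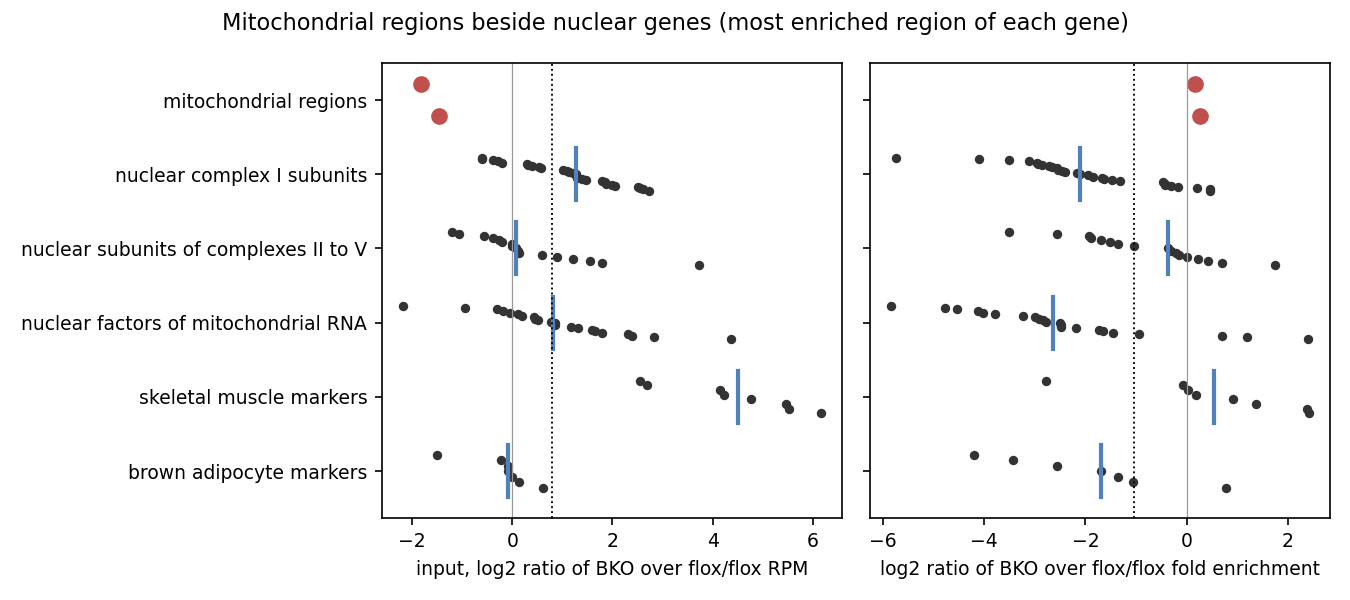
Log2 ratio of BKO over flox/flox input level (left) and fold enrichment (right) for the 2 mitochondrial regions (red) and for nuclear gene lists, with each gene at its most enriched region (black points, blue line at the list's median). The solid line marks 0 and the dotted line the median of all regions. The mitochondrial regions lie at -1.82 and -1.47 in the input, below every complex I subunit, and at 0.16 and 0.27 in fold enrichment.

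Markers of other cell types differed between the same input libraries. Of 10 skeletal muscle markers, 8 had a region, and all 8 had a higher input in BKO, with log2 ratios from 2.55 to 6.17. Their summed input was 406 RPM in BKO and 24.5 RPM in flox/flox, and *Tnnc2*, a troponin of fast muscle, had no input read in flox/flox. Of these 8 markers, 2 had 20 or more input reads in each genotype. All but *Des* were called as peaks only in BKO, so they are listed only through the genotype with the higher input. Over all genes, 24.8% had a lower input in BKO. Brown adipocyte markers differed less, with a summed input over 7 of 9 markers of 593 RPM in BKO and 612 RPM in flox/flox and a median log2 ratio of -0.08, against 0.81 for all genes. The median was -0.45, against 0.43 for all regions, when scaled to the reads in listed regions. It was -0.89, with all 7 lower, when centred on the median of all regions. Of the 7, 5 had 20 or more input reads in each genotype. *Prdm16* had 6 reads in BKO and 2 reads in flox/flox, and *Cidea* 9 reads in BKO and 6 reads in flox/flox. The paper reports lower mRNA of *Ucp1*, *Prdm16* and *Cidea* in BKO by quantitative PCR. In BKO only, *Ucp1* carries the Cre insert after exon 6 and before its 3′ UTR. An effect of this insert on reads in the last-exon region of *Ucp1* cannot be told apart. The input level of *Ucp1*, at that region, was 216 RPM in BKO and 229 RPM in flox/flox. That of *Dio2*, which activates thyroid hormone, was the lowest of the 7 by its log2 ratio (-1.51, 46 reads in BKO and 87 reads in flox/flox), and *Ppargc1a* and *Elovl3* had no region. The summed input of 5 general adipocyte markers was 1807 RPM in BKO and 1015 RPM in flox/flox, most of it from *Adipoq* (1290 RPM in BKO and 758 RPM in flox/flox). *Adipoq*, *Fabp4* and *Plin1* were higher in BKO, *Lipe* was 196 RPM in BKO and 226 RPM in flox/flox, and *Pparg* had no input read in either genotype at its region. Centred on the median of all regions, 3 of the 5 were lower and 2 higher. That of 3 macrophage markers with a region, of 5 searched, was 32.3 RPM in BKO and 8.5 RPM in flox/flox, and that of 4 endothelial markers 142 RPM in BKO and 235 RPM in flox/flox. Of the endothelial markers *Cdh5* (89.5 RPM in BKO and 183 RPM in flox/flox) and *Sox17* were lower in BKO, and *Pecam1* and *Kdr* were higher. The part of these shifts in the mitochondrial values was not tested.

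The regions with the pattern most like the mitochondrial ones were found by the distance over 3 values on the log2 scale, namely the fold enrichment in BKO, that in flox/flox and the input ratio, among regions with 20 or more input reads in each genotype. Nearest to *mt-Nd2* were the 3′-UTR region of *Pde6d* (distance 0.38), the 5′-UTR region of *Mapk1ip1* (0.49) and the last-exon region of *Aes*, a corepressor of the Groucho family (0.52). Nearest to *mt-Nd5*/*mt-Nd6* were the 3′-UTR region of *Abhd4*, a lipase of N-acyl phospholipids (0.48), a last-exon region with no symbol given (0.51) and again *Pde6d* (0.63). The input log2 ratio was -1.25 for *Pde6d*, -1.16 for *Mapk1ip1*, -0.98 for *Aes* and -1.70 for *Abhd4*. Of these 4, only *Mapk1ip1* had a higher fold enrichment in BKO, with a log2 ratio of 0.53, against -0.09 for *Pde6d*, -0.07 for *Aes* and -0.38 for *Abhd4*. This likeness rests on 4 libraries and is a description.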

How the data were processed

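m6ARIP-seq of iBAT was analysed from 1 peak table with 1 IP and 1 input library each of BKO and flox/flox mice. The authors' methods state adaptor trimming by skewer, alignment by BWA (0.7.12-r1039) to GRCm38 from Ensembl and peak calling by MACS2 (2.1.0). For the merging of peak sets, the read counting and the first base of coordinates, no method is stated in what was used here, so overlaps with genes may be off by 1 base. The deposited values are whole read counts per region, RPM values that the authors computed after adding 1 to each count, and the deposited fold enrichment, a linear ratio of IP over input RPM. The deposited log2 column sets BKO over flox/flox fold enrichment. It is the authors' own comparison and was recomputed here from the fold enrichments. The deposited marks for called peaks carry no score. Columns labelled KO were assigned to BKO and those labelled CON, the control, to flox/flox, the only other genotype in the labels.

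Regions were counted once, and a nuclear gene was read at the region where fold enrichment was highest in either genotype. Intervals (95%) were taken on the log scale from counts plus 1 with 2 reads per fragment, and shares have Wilson intervals. PCR copies are not independent molecules. The rule for named genes took every mt- row, the 2 lowest and 2 highest members of each nuclear list by fold enrichment ratio with 20 or more input reads in each genotype, and the 3 nearest regions for each mitochondrial region. A member that this rule named is not reported here. Other genes named, such as the deepest regions and the *Ndufs7* and *Ndufc1* exons, were chosen after their values were seen. The members, lists and rules were chosen with earlier results of these data known. Alternatives were other scalings, centring, no added count, 1 read per fragment, filters on input reads and other thresholds.

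Python 3.11.15, pandas 2.3.3, NumPy 2.4.6, SciPy 1.17.1 and Matplotlib 3.10.9 were used. On simulated counts for 9243 regions, 95.7% of intervals held the true log2 ratio, but the simulation assumed the same 2 reads per fragment.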

Additional observations from a re-analysis of the deposited data

How the results depend on the processing

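Scaling decided the size of the mitochondrial values and, in 1 setting, the side of 1. With the reads in listed regions as library size, the fold enrichment of *mt-Nd2* was 0.575 in BKO and 0.235 in flox/flox, and that of *mt-Nd5*/*mt-Nd6* 0.662 and 0.251, and the log2 ratios of fold enrichment were 1.29 and 1.40. The input log2 ratios were then -1.84 (*mt-Nd2*) and -2.19 (*mt-Nd5*/*mt-Nd6*), and the IP log2 ratios -0.55 and -0.79. Centred on the median of all regions, the log2 ratio was 1.21 and 1.32 for fold enrichment, -2.27 and -2.62 for the input, and -1.04 and -1.28 for the IP, in the same order of regions. Centred on the median of regions with 20 or more input reads, the fold enrichment log2 ratios were 1.23 and 1.34. Without mitochondrial reads in the totals (chosen after seeing the data), the mitochondrial fold enrichments and the log2 ratios of fold enrichment, input and IP stayed within their counting intervals. So did fold enrichment and its log2 ratio without the added count, and with 1 read per fragment the interval of that ratio stayed above 0. The median fold enrichment log2 ratio of the nuclear lists stayed below 0 when all regions of a gene were averaged and when 20 or more input reads were required, at -1.63 and -1.84 for complex I (-2.11 otherwise) and at -2.31 and -2.64 for the mitochondrial RNA factors.

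Over all regions, a fold enrichment at least 2-fold lower in BKO was counted in 4698 regions, and in 2989 at a 4-fold threshold, 2331 with 20 or more input reads in each genotype and 30 with at least 1000 (chosen after seeing the data). For an input at least 2-fold lower these counts were 681, 216, 251 and 6. Motif content of the mitochondrial regions was not analysed here. No paired analysis was possible because each genotype has 1 library of each kind and the labels give no replicate numbers. Counting error is small at this depth, so the lack of replicate pools limits these values.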
